A study of Mus musculus with 20 samples.

Results

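Chemokines and their receptors were examined in 20 mouse ovarian tumours as the 60 genes of the deposited RPKM table whose symbols follow the chemokine ligand or receptor pattern. They comprised 38 ligands (Ccl, Cxcl, Cx3cl and Xcl symbols) and 22 receptors (Ccr, Cxcr, Cx3cr, Xcr and Ackr symbols) among 22417 genes listed there. The tumours grew from ID8 cells, a mouse ovarian surface epithelial line, here lacking Trp53 and Brca1 and expressing luciferase, which had been injected into the peritoneal cavity of C57/BL6 females. Every group carried these cells, so the deletions are common to the treated and the untreated tumours. In the full combination (Combo in the labels, n = 4) mice received the PARP inhibitor olaparib, dual immune checkpoint blockade (ICB, antibodies to CTLA-4 and PD-L1) and an antibody to VEGFA. The other treated groups had olaparib with ICB (n = 3), olaparib with anti-VEGFA (n = 4), ICB alone (n = 3) or olaparib alone (PARPi, n = 3), and the control mice were untreated (n = 3). Olaparib was given by mouth at 40 mg/kg/day, and the antibodies were injected into the peritoneum at 100 µg (anti-CTLA-4), 200 µg (anti-PD-L1) and 20 µg (anti-VEGFA) per dose.

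Chemokines are small secreted proteins that direct cell migration along concentration gradients held on glycosaminoglycans. They act through G protein-coupled receptors on leukocytes, which activate integrins and the actin cytoskeleton, while atypical receptors bind chemokines without G protein signalling and remove or transport them. In tumours, CCR2 and its ligands are known for monocyte entry, CXCR3 and its interferon-induced ligands for effector T cells and natural killer cells, CCR4 and CCR8 for regulatory T cells, and CXCL12 with CXCR4 for retention of cells in stroma.

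The total count per library was 26.9 to 34.7 M, and 51 of the 60 genes (30 ligands and 21 receptors) had enough counts to be tested. Epithelial and mesothelial genes of the line were present in every library, with Wt1 at 795 to 1071 counts per M counts (CPM) and Krt8 at 267 to 381 CPM. Trp53 transcripts were at 50.6 to 71.7 CPM and Brca1 transcripts at 10.7 to 24.6 CPM, and without the position of the edits these levels do not check the genotype. RNA of pancreatic acinar cells stood apart in 4 libraries (full combination replicate 2, PARPi with anti-VEGFA replicates 1 and 4, and ICB replicate 3). The mean log2 CPM of 3 RNAs linked to library preparation (Rn7sk, Lars2 and Mir6236) was 2.96 to 4.63 in the full combination, 2.95 to 3.53 with PARPi and ICB, 2.72 to 2.81 with PARPi and anti-VEGFA, 2.74 to 3.08 with ICB, 2.99 to 4.31 with PARPi and 4.47 to 4.82 in controls. This level was therefore lower than in every control in all libraries except full combination replicate 4, and results below are also given with it as a covariate. In whole tissue, more cells of a type and more RNA per cell cannot be told apart.

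Levels of different genes were compared as CPM per kb of merged exons, because the length behind the deposited RPKM was the whole gene with its introns (median ratio to the gene span 0.987, and within 5% of it in 99.8% of 10987 genes). In controls the order began with Cxcl16 at 67.3 ± 6.37 (SD, n = 3), the membrane-bound ligand of CXCR6, followed by Cxcl17 at 56.7 ± 7.64 and Cxcl9 at 40.8 ± 9.25. Each of these neighbours (Cxcl16 and Cxcl17, and Cxcl17 and Cxcl9) differed by less than the sum of its SDs, so their order is not separated from the spread between tumours. Among receptors in controls, Cx3cr1 was at 15.2 ± 1.59, followed by Cxcr4 at 11.5 ± 2.75 and Ccr1 at 11.2 ± 1.28, and both neighbouring pairs were within the sum of their SDs. In the full combination Ccl8, a ligand of monocytes and type 2 lymphocytes, stood first at 78.9 ± 37.1 CPM per kb (SD, n = 4), while in controls it was 14th at 9.46 ± 3.30. Its spread in the full combination covered the 77.3 ± 5.02 of Cxcl16 and the 67.3 ± 19.9 of Cxcl9.

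Of the remaining 9 genes, Ccl19, Ccl21a, Ccl27b and Cxcr1 had no count in any library and Ccl21b had 2 counts in all. Ccl20, Ccl26 and Cxcl15 were at most at 0.350 CPM in any library, and Ccl21d was matched to no identifier of the count table by its symbol. Over the aligned bases, transcripts of Ccl19, Ccl21a, Ccl21b and Ccl27b are 99.1 to 100% identical to copies elsewhere in the genome. For Ccl19 the aligned part was only 324 to 325 of 745 bases. The copy of Ccl27b is Ccl27a, which had 9991 counts over all libraries. Reads from the shared parts may have gone uncounted, so 0 does not show that these genes are silent. Ccr7, the receptor of the CCL19 and CCL21 proteins on dendritic cells and naive T cells, was measured at 4.35 to 7.10 CPM in the full combination and 3.44 to 4.41 CPM in controls.

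Most chemokine genes that changed rose, and they did so in the groups in which PARPi was combined with an antibody. The test was edgeR's quasi-likelihood test over 18144 genes with Benjamini-Hochberg adjustment, with calls made below an adjusted p of 0.05. Against controls, 30 of the 51 tested genes were called in the full combination (26 higher and 4 lower, 58.8%), against 24.2% of all genes tested (12.6% higher and 11.5% lower). With PARPi and ICB 21 were called (19 higher and 2 lower, 41.2%), against 16.1% of all genes (9.58% higher and 6.52% lower), and with PARPi and anti-VEGFA 32 were called (29 higher and 3 lower, 62.7%), against 17.8% (9.99% higher and 7.8% lower). ICB alone had 3 calls, all higher (5.88%), against 2.2% of all genes (1.23% higher and 0.976% lower), and PARPi alone had none (against 0.0661% of all genes), with 14 of the 51 at an unadjusted p under 0.05 (11.4% of all genes), 2 called by DESeq2 and 0 by limma. The median log2 fold change of the tested members was 0.64 in the full combination, 0.64 with PARPi and ICB, 0.87 with PARPi and anti-VEGFA, 0.21 with ICB and 0.30 with PARPi, while the median over all genes lay between -0.02 and 0.00 in these comparisons. No receptor was called lower in any comparison with controls, and 13, 9 and 13 of the 21 tested receptors were called higher in the full combination, with PARPi and ICB, and with PARPi and anti-VEGFA.

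**Figure D1:**
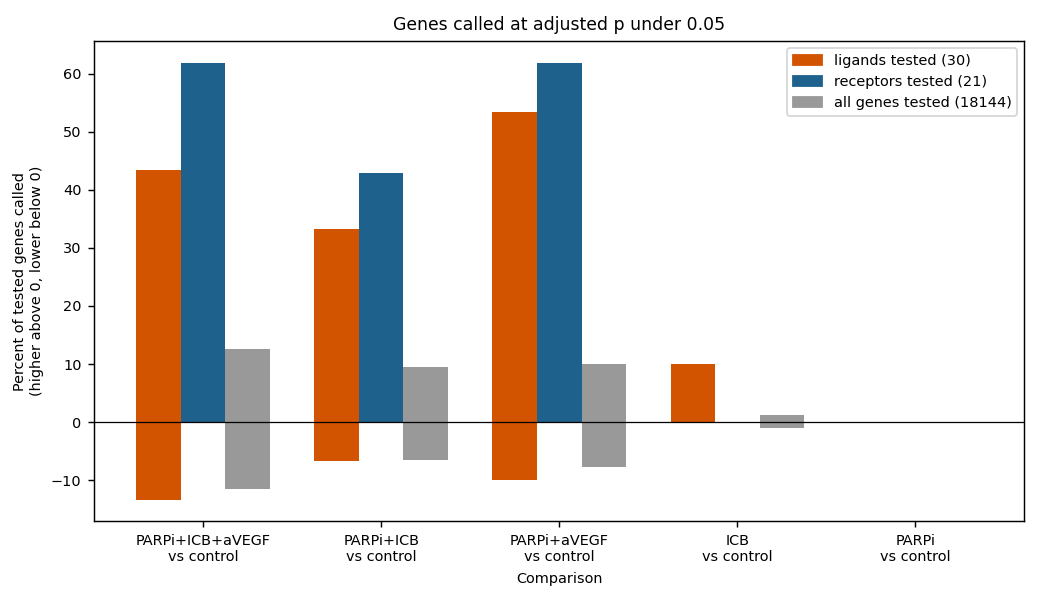
Percent of tested ligands (30), receptors (21) and all genes (18144) called higher (above 0) or lower (below 0) at an adjusted p under 0.05 in each treatment against the 3 controls. Bars are tall in the 3 combination groups, where 58.8, 41.2 and 62.7% of the 51 tested members were called, and at or near 0 for PARPi alone.

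All 5 comparisons share the same 3 controls. In the combinations, 15 genes were called higher in each of the 3, none was called lower in each, 39 were called in at least 1, and 12 of the tested genes were called in none. With the library preparation RNAs as a covariate, a fit added after the data had been seen, 16 members were called in the full combination, all higher, 1 with PARPi and ICB (Ccl8), and 0 with PARPi and anti-VEGFA. In these last groups that RNA level did not overlap the controls, so treatment and library preparation cannot be told apart there. Fold changes of some members moved little with the covariate and those of others fell. With PARPi and ICB, Ccl5 was at 1.34 with it (1.35 without), Ccr4 at 1.69 (1.71) and Cxcr3 at 1.68 (1.60). With PARPi and anti-VEGFA, Cxcr3 was at 1.63 (1.53 without), Ccl22 at 1.17 (1.25) and Ccl5 at 1.37 (1.39), whereas Xcl1 was at 0.47 (1.30) and Cxcl10 at 0.37 (0.73). Full combination replicate 4 had a level of these RNAs within the control range (4.63), and in it 36 of the 51 tested members lay above all 3 controls, against 30% of all genes tested. That library is one of the 4 behind the calls of its group. Leaving out PARPi with ICB replicate 3 left 12 calls of 21 for that group, leaving out control replicate 3 left 20 of 32 for PARPi with anti-VEGFA, and leaving out control replicate 1 left 19 of 30 for the full combination.

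**Figure D2:**
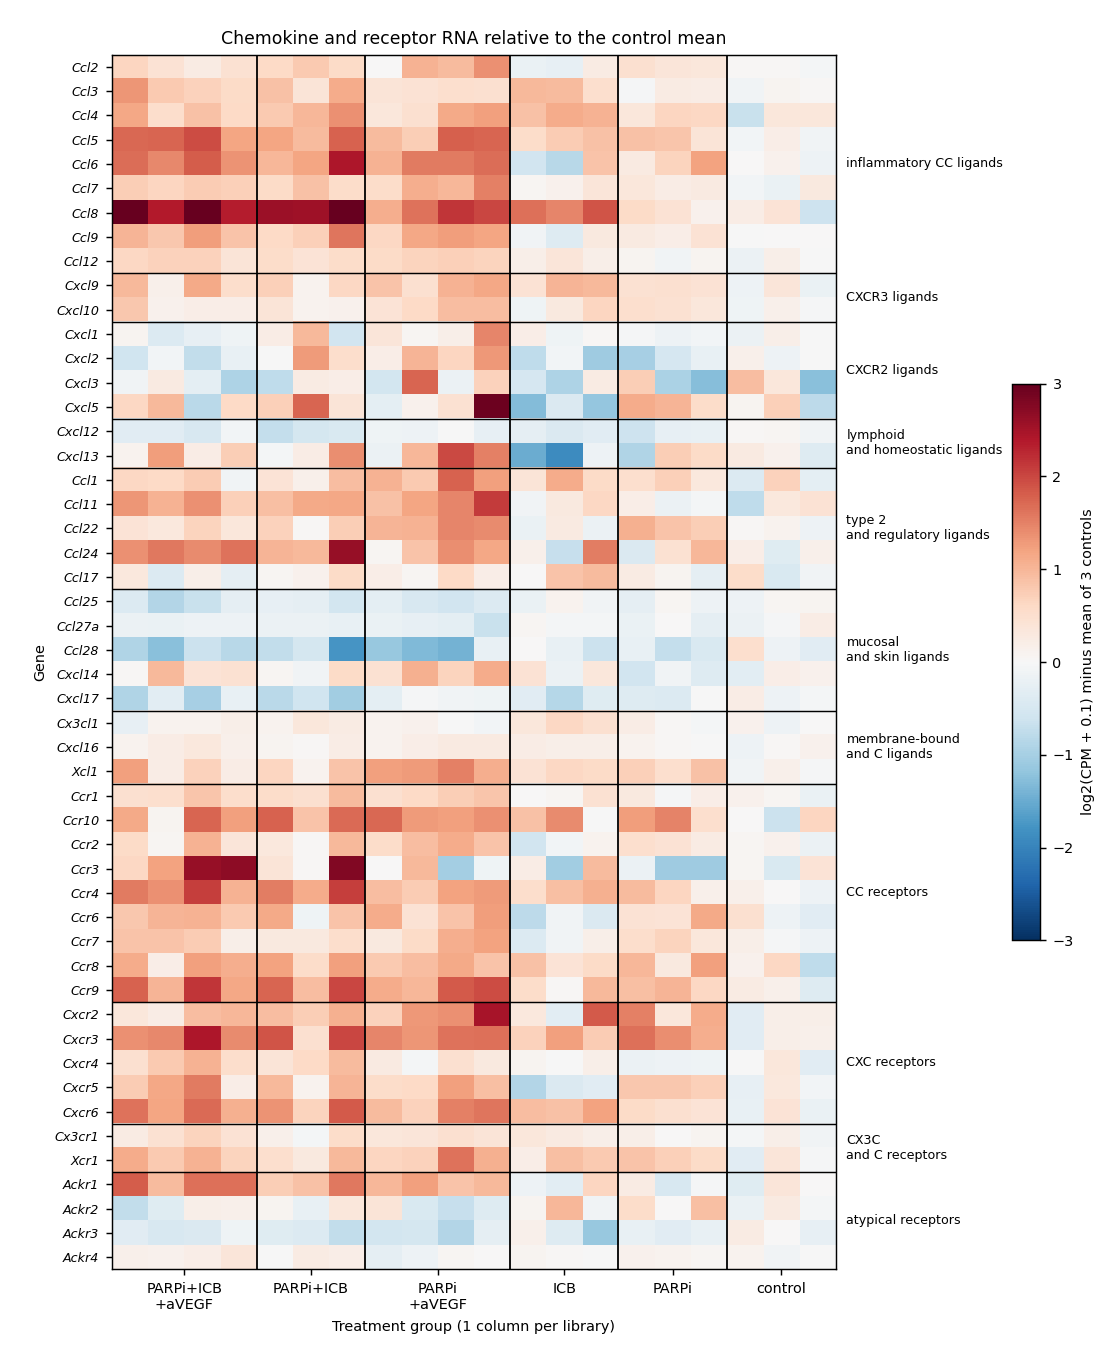
Log2(CPM + 0.1) of 50 tested members in each of the 20 libraries, as the difference from the mean of the 3 controls, with rows grouped by role and columns by treatment. Red rows run through the inflammatory CC ligands and the receptors in the 3 combination groups, and the mucosal ligands Ccl25 and Ccl28 are blue there.

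The inflammatory CC ligands, which attract monocytes, macrophages and activated T cells, were higher in all 3 combinations in 8 of 9 tested genes each, against 12.6, 9.58 and 9.99% of all genes called higher in the full combination, with PARPi and ICB, and with PARPi and anti-VEGFA. Ccl8 had the highest fold change of the called members in the full combination, in PARPi with ICB and in ICB alone. It was at 61.3, 24.6, 51.5 and 23.9 CPM in the full combination, 27.8, 27.3 and 52.1 CPM with PARPi and ICB, 9.87, 14.5, 20.7 and 18.9 CPM with PARPi and anti-VEGFA, 14.7, 12.8 and 17.4 CPM with ICB, 6.88, 6.30 and 5.05 CPM with PARPi, and 5.38, 6.18 and 2.94 CPM in controls. All libraries given ICB, alone or combined, and all given PARPi with anti-VEGFA lay above every control, whereas PARPi alone overlapped the controls. The log2 fold change against controls was 3.06 ± 0.38 (SE; adjusted p = 6.65e-05 by edgeR) in the full combination, 2.88 ± 0.39 (adjusted p = 0.000218) with PARPi and ICB, 1.72 ± 0.37 (adjusted p = 0.00411) with PARPi and anti-VEGFA, and 1.63 ± 0.38 (adjusted p = 0.0314) with ICB. The ICB call was lost in 9 of 14 alternative fits, among them each of the 6 that left out 1 library. With the covariate the value was 2.82 in the full combination (adjusted p = 0.00117) and 2.54 with PARPi and ICB (adjusted p = 0.0229), both still called.

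Adding ICB to PARPi raised Ccl8 by 2.55 ± 0.39 on the log2 scale (edgeR adjusted p = 0.00394). The full combination exceeded PARPi with anti-VEGFA in every library, but the log2 difference of 1.34 ± 0.32 had an adjusted p of 0.109, and against PARPi with ICB the difference was 0.17 ± 0.34 (adjusted p = 0.999).

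Ccl8 lies in a cluster of 6 CC ligand genes on chromosome 11 (GRCm38, 82035571 to 82305690) in the order Ccl2, Ccl7, Ccl11, Ccl12, Ccl8 and Ccl1. All of them were called higher with PARPi and anti-VEGFA, against 9.99% of all genes, though the call of Ccl1 was lost in 6 of 15 alternative fits. Ccl7, Ccl11, Ccl12 and Ccl8 were also called higher in both other combinations, against 12.6 and 9.58% of all genes. Ccl2, Ccl7, Ccl12 and Ccl8 are among the inflammatory CC ligands counted above. The 250 bases before the start sites of Ccl12 and Ccl8, neighbours that rose in all 3 combinations, are shown with matches to TATAAA in capitals (RefSeq sequence, GRCm38.p6, both on the plus strand, chr11:82101595-82101844 for Ccl12 and chr11:82114935-82115184 for Ccl8).
Ccl12: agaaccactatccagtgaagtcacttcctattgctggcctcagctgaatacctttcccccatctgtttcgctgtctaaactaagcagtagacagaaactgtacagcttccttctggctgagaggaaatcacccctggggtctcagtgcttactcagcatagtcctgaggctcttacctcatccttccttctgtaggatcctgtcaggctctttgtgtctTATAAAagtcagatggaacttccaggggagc
Ccl8: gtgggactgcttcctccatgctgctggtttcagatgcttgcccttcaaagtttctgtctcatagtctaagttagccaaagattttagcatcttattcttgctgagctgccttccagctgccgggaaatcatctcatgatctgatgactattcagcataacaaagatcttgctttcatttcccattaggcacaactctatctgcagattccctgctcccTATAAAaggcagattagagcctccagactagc
The match ran from base -31 to -26 before the start in Ccl12 and from -32 to -27 in Ccl8. Of 32851 mouse promoters of this length, 12.4% hold TATAAA on either strand. In neither sequence was there a match, on either strand, to the STAT site TTCNNNGAA (present in 7.02% of promoters), the interferon element of GAAA and GAAA with 2 free bases between (2.98%) or the NF-kB site of GGG and TTTCC with 2 free bases between (1.41%), which says only that these letters are not in this window.

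Ccl12, a ligand of CCR2 in mice, varied little between tumours of a group. It was at 14.9, 15.7, 15.8 and 12.7 CPM in the full combination, 14.3, 12.9 and 14.2 CPM with PARPi and ICB, 14.6, 15.4, 16.1 and 15.6 CPM with PARPi and anti-VEGFA, 10.97, 12.6 and 10.98 CPM with ICB, 10.2, 8.99 and 10.3 CPM with PARPi, and 8.66, 11.05 and 9.59 CPM in controls. The 3 combinations lay above all PARPi and control libraries. Adding anti-VEGFA to PARPi raised it by 0.65 ± 0.10 (edgeR adjusted p = 0.0186) and adding ICB to PARPi raised it by 0.49 ± 0.11 (adjusted p = 0.0302), calls that were lost in 4 of 15 and 7 of 14 alternative fits.

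A further cluster on chromosome 11 (83525778 to 83664683) holds Ccl5, Ccl9, Ccl6, Ccl3 and Ccl4, all among the inflammatory CC ligands counted above. Each was called higher in the full combination and with PARPi and ICB, against 12.6 and 9.58% of all genes. Ccl5, made by cytotoxic lymphocytes and macrophages and bound by CCR1 and CCR3 among others, was at 15.6, 16.1, 18.6 and 10.8 CPM in the full combination, 10.8, 9.14 and 16.4 CPM with PARPi and ICB, 9.13, 7.89, 16.6 and 16.0 CPM with PARPi and anti-VEGFA, and 4.41, 5.41 and 4.37 CPM in controls. Each combination library exceeded each control. Its log2 fold change was 1.69 ± 0.27 (edgeR adjusted p = 0.000361) in the full combination, 1.35 ± 0.28 (adjusted p = 0.00336) with PARPi and ICB, and 1.39 ± 0.27 (adjusted p = 0.00236) with PARPi and anti-VEGFA. With ICB alone it was 0.74 ± 0.28 (adjusted p = 0.17) and with PARPi alone 0.72 ± 0.28 (adjusted p = 0.315), neither of which passed although all libraries lay above the controls.

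Ccl6, a mouse chemokine of myeloid cells that binds CCR1, was at 55.0, 46.9, 60.8 and 43.6 CPM in the full combination and 17.3, 18.98 and 15.5 CPM in controls. Its log2 fold change was 1.58 ± 0.38 (edgeR adjusted p = 0.00614), against 1.69 ± 0.40 (adjusted p = 0.00752) with PARPi and ICB and 1.48 ± 0.38 (adjusted p = 0.012) with PARPi and anti-VEGFA. Ccl9, another mouse CCR1 ligand, was at 42.8, 47.0 and 86.7 CPM with PARPi and ICB, 26.5, 21.7 and 35.0 CPM with ICB, and 28.2, 28.5 and 28.5 CPM in controls. It was the single tested member called between PARPi with ICB and ICB alone (1 of 51, 1.96%, against 0.871% of all genes). Its log2 difference was 1.08 ± 0.22 (edgeR adjusted p = 0.0359), a call that was lost in 6 of 14 alternative fits. The log2 fold change of Ccl3, which is made by activated macrophages and T cells, was 0.85 ± 0.21 (edgeR adjusted p = 0.0414) with ICB alone, with 4.02, 3.99 and 2.89 CPM under ICB and 1.86, 2.15 and 2.05 CPM in controls. This call was lost in 10 of 14 alternative fits.

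**Figure D3:**
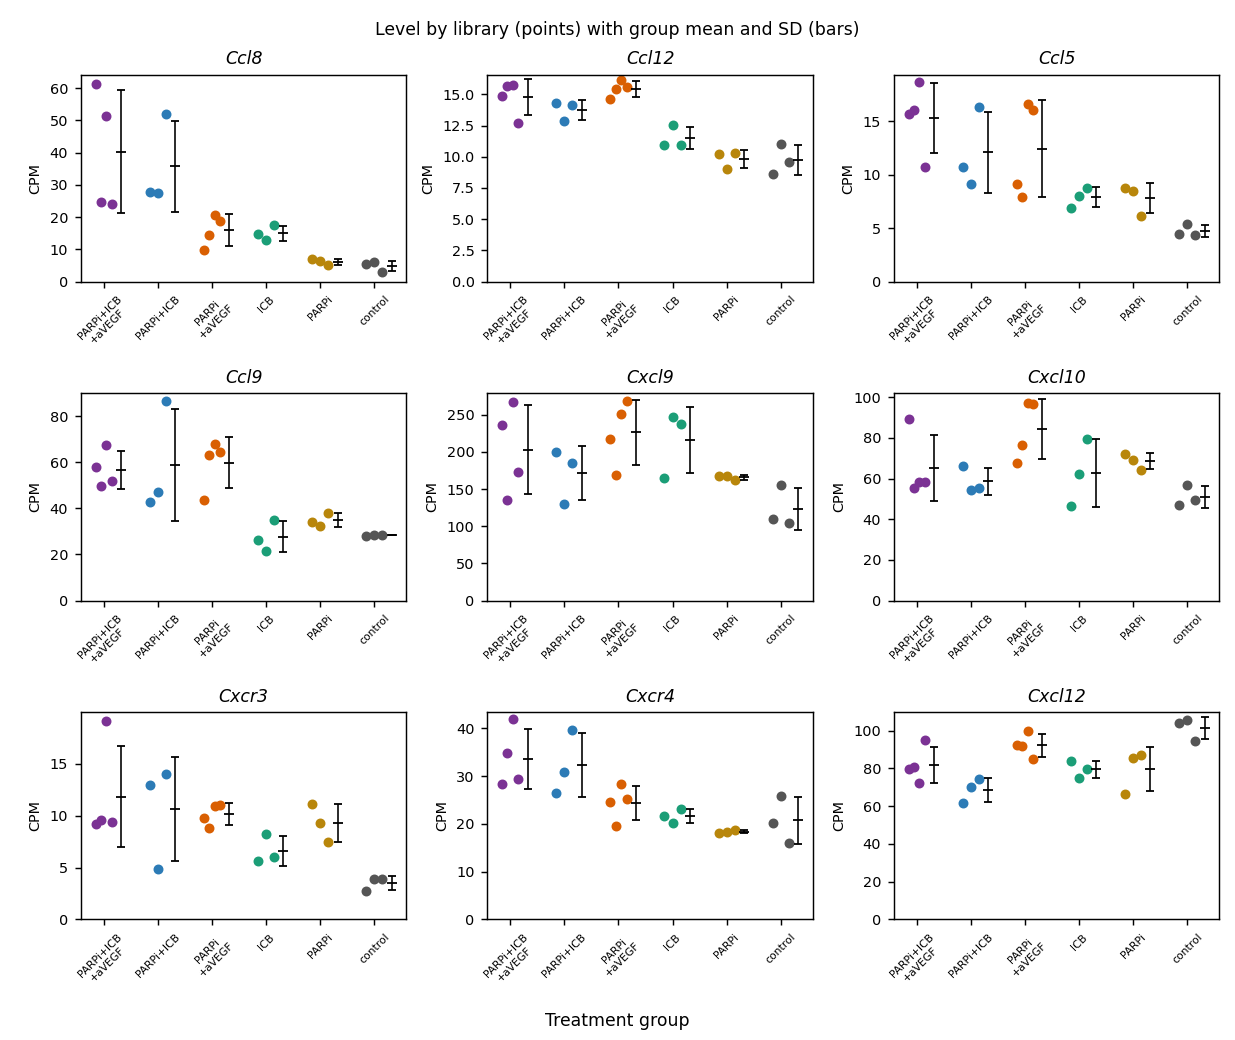
CPM of 9 chemokine and receptor genes in each library (points) with the group mean and SD beside them, for 6 treatment groups. Ccl8 reaches 61.3 CPM in the full combination while controls stay at or below 6.18 CPM, and Cxcl12 is highest in controls.

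Receptors of these ligands were also higher. Ccr1, a myeloid receptor, was at 44.2, 44.8, 56.4 and 45.5 CPM in the full combination and 34.3, 33.01 and 27.5 CPM in controls (0.59 ± 0.14, edgeR adjusted p = 0.0053). No full combination library overlapped a control. Ccr2, which marks inflammatory monocytes, was at 59.4, 77.0, 88.5 and 73.8 CPM with PARPi and anti-VEGFA and 42.4, 44.4 and 36.0 CPM in controls (0.87 ± 0.23, edgeR adjusted p = 0.0138), and its ligand Ccl2 rose in the same group by 0.93 ± 0.21 (adjusted p = 0.00666). In the full combination neither passed, at 0.55 ± 0.22 (adjusted p = 0.086) for Ccr2 and 0.46 ± 0.21 (adjusted p = 0.123) for Ccl2.

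Ccr8, the mouse receptor of CCL8 and CCL1 on regulatory and type 2 T cells, was low throughout, at 1.85, 0.927, 2.01 and 1.79 CPM in the full combination and 0.881, 1.28 and 0.430 CPM in controls. These groups overlapped, and the log2 fold change of 0.93 ± 0.34 did not pass (edgeR adjusted p = 0.0527), though it did in 4 of 15 alternative fits.

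The CXCR3 axis brings interferon-activated T cells and natural killer cells into tissue, and Cxcl9 and Cxcl10 encode its ligands. Cxcl9 was at 236, 135, 268 and 173 CPM in the full combination, 217, 169, 251 and 268 CPM with PARPi and anti-VEGFA, 165, 247 and 237 CPM with ICB, and 109, 155 and 104 CPM in controls. Full combination replicate 2 lay below the highest control, while PARPi with anti-VEGFA and ICB did not overlap controls. Cxcl9 was called in the full combination (0.72 ± 0.22, edgeR adjusted p = 0.0253, lost in 7 of 15 alternative fits) and with PARPi and anti-VEGFA (0.88 ± 0.22, adjusted p = 0.012), but not with PARPi and ICB (0.48 ± 0.24, adjusted p = 0.176) or ICB alone (0.81 ± 0.24, adjusted p = 0.0793). Cxcl10 was called with PARPi and anti-VEGFA (67.6, 76.5, 97.0 and 96.6 CPM, against 46.8, 56.9 and 49.2 CPM in controls; 0.73 ± 0.18, edgeR adjusted p = 0.0106) and not in the full combination (0.36 ± 0.18, adjusted p = 0.162). With PARPi alone Cxcl9 was at 167, 168 and 162 CPM and Cxcl10 at 72.0, 69.4 and 64.1 CPM, all above the controls. Neither was called there (0.43, adjusted p = 0.516 for Cxcl9 and 0.43, adjusted p = 0.401 for Cxcl10 by edgeR). The exons of Cxcl10 share 5.91% of their bases with Art3 on the opposite strand, and the strand setting of the counting is not given in the sources used here.

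The 250 bases before the start sites of both ligand genes, which lie near each other on chromosome 5, are shown because their calls differ between groups (RefSeq sequence, GRCm38.p6, minus strand, chr5:92328080-92328329 for Cxcl9 and chr5:92348890-92349139 for Cxcl10). Capitals mark the interferon element in Cxcl10 (bases -213 to -204) and TATAAA in Cxcl9 (bases -195 to -190).
Cxcl9: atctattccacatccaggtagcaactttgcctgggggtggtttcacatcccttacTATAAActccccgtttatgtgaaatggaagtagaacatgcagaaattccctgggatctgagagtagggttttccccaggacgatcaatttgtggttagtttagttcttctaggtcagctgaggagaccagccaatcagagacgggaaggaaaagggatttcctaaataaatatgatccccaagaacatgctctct
Cxcl10: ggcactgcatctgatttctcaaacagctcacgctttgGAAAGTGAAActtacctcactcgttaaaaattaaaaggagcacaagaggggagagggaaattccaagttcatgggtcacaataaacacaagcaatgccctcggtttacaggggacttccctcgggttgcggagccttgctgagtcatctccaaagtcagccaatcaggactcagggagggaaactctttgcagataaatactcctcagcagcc
Of the 46 members with a RefSeq promoter, 3 held the interferon element (Cxcl10, Cxcl14 and Ccl19), 3 the STAT site and 6 the NF-kB site. No match in Cxcl9 to the interferon element or the STAT site is a statement on these letters in this window alone.

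Cxcr3 itself was at 9.15, 9.59, 19.1 and 9.42 CPM in the full combination, 13.0, 4.85 and 14.1 CPM with PARPi and ICB, 9.78, 8.77, 10.9 and 11.03 CPM with PARPi and anti-VEGFA, 5.60, 8.20 and 5.97 CPM with ICB, 11.1, 9.28 and 7.44 CPM with PARPi, and 2.71, 3.93 and 3.87 CPM in controls. Every treated library exceeded every control. The log2 fold change was 1.76 ± 0.33 (edgeR adjusted p = 0.00115) in the full combination, 1.60 ± 0.34 (adjusted p = 0.00399) with PARPi and ICB and 1.53 ± 0.33 (adjusted p = 0.00408) with PARPi and anti-VEGFA, and it was larger than that of either ligand gene in each of these groups, though the difference between genes was not tested. With PARPi alone it was 1.40 ± 0.34 (adjusted p = 0.105) and with ICB alone 0.91 ± 0.34 (adjusted p = 0.164).

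Cxcr6 and its ligand Cxcl16, which position resident and cytotoxic T cells, differed widely in size of change. Cxcr6 was at 13.8, 10.02, 14.4 and 9.28 CPM in the full combination and 3.71, 5.81 and 3.80 CPM in controls, with no overlap (1.42 ± 0.27, edgeR adjusted p = 0.00142). Cxcl16 rose by 0.20 ± 0.07 on the log2 scale (adjusted p = 0.0387, lost in 7 of 15 alternative fits) and overlapped the controls, and 18.3% of its exon bases lie opposite Zmynd15. Ccr4, a receptor of regulatory and type 2 T cells, was at 2.92, 2.57, 4.24 and 2.04 CPM in the full combination and 1.04, 0.940 and 0.827 CPM in controls. It rose by 1.65 ± 0.29 (adjusted p = 0.000756 by edgeR), by 1.71 ± 0.30 (adjusted p = 0.00114) with PARPi and ICB and by 1.12 ± 0.29 (adjusted p = 0.0133) with PARPi and anti-VEGFA.

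Of the CCR4 ligands, Ccl17 was called in no comparison, and Ccl22, made by dendritic cells, was called with PARPi and anti-VEGFA. It was at 17.5, 17.8, 23.9 and 23.3 CPM there, 11.5, 10.8, 13.8 and 11.004 CPM in the full combination, 18.3, 15.6 and 14.3 CPM with PARPi, and 8.88, 9.34 and 7.74 CPM in controls. PARPi with anti-VEGFA lay above both the full combination and the controls without overlap, and its log2 fold change against controls was 1.25 ± 0.18 (edgeR adjusted p = 0.00039). Between the full combination and PARPi with anti-VEGFA the difference was -0.81 ± 0.16 and did not pass (adjusted p = 0.0586). Xcl1, released by natural killer and CD8 T cells, and Xcr1, its receptor on cross-presenting dendritic cells, were both called in this group, at 1.30 ± 0.22 (edgeR adjusted p = 0.00114) and 1.05 ± 0.25 (adjusted p = 0.00772). With the covariate Xcl1 was at 0.47 (adjusted p = 0.544 by edgeR) and Xcr1 at 0.93 (adjusted p = 0.388), neither called. Xcl1 was at 8.22, 8.42, 9.92 and 7.48 CPM with PARPi and anti-VEGFA and 3.18, 3.83 and 3.34 CPM in controls.

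Ccl11 and Ccl24, eosinophil attractants acting on CCR3, were also higher. Ccl11 was at 2.47, 2.00, 2.56 and 1.59 CPM in the full combination, 1.77, 2.24, 2.73 and 4.27 CPM with PARPi and anti-VEGFA, 1.07, 0.803 and 0.890 CPM with PARPi, and 0.504, 1.18 and 1.29 CPM in controls. Its log2 fold change was 1.12 ± 0.32 (edgeR adjusted p = 0.0178) in the full combination, and adding anti-VEGFA to PARPi raised it by 1.57 ± 0.32 (adjusted p = 0.0399, lost in 11 of 15 alternative fits). Ccl24 was at 3.67, 4.24, 3.82 and 4.38 CPM in the full combination and 1.57, 1.04 and 1.52 CPM in controls, without overlap (1.54 ± 0.52, adjusted p = 0.038). That call was lost in 9 of 15 alternative fits, among them all 7 that left out 1 library, limma and the covariate. Ccr3 did not pass (2.46 ± 0.89, edgeR adjusted p = 0.0523), but was called in 5 of 15 alternative fits. It was at 0.325, 0.535, 1.59 and 1.69 CPM in the full combination and 0.189, 0.101 and 0.265 CPM in controls. In the full combination 2 of the 3 tested eosinophil markers were called higher, against 12.6% of all genes.

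The genes that fell were all ligands. Of 5 tested mucosal and skin ligands 3 were called lower in the full combination, 1 with PARPi and ICB, and 3 with PARPi and anti-VEGFA. The shares of all genes called lower in these groups were 11.5, 6.52 and 7.8%. With PARPi and anti-VEGFA Cxcl14 was called higher. The lower calls of Ccl25, Ccl27a and Ccl28 there were lost in 6, 9 and 7 of 15 alternative fits. Cxcl12, which keeps CXCR4-bearing cells in stroma and bone marrow, was at 79.6, 80.6, 72.4 and 95.2 CPM in the full combination, 61.6, 70.1 and 74.2 CPM with PARPi and ICB, 92.4, 91.9, 99.9 and 85.0 CPM with PARPi and anti-VEGFA, and 104, 106 and 94.6 CPM in controls. With PARPi and ICB all libraries lay below the controls, and in the full combination replicate 4 overlapped them. With ICB alone Cxcl12 was at 83.7, 74.7 and 79.9 CPM and with PARPi alone at 66.3, 85.6 and 87.2 CPM. All these libraries lay below the controls too, though Cxcl12 was called in neither group. Cxcl12 fell by 0.56 ± 0.11 on the log2 scale (edgeR adjusted p = 0.00179) with PARPi and ICB and by 0.31 ± 0.10 (adjusted p = 0.0306) in the full combination, a call that was lost in 8 of 15 alternative fits. With the library preparation RNAs as covariate the value with PARPi and ICB was -0.44 and no longer called (adjusted p = 0.119 by edgeR). With PARPi and anti-VEGFA the value was -0.14 ± 0.10 (adjusted p = 0.365).

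Cxcr4 moved the other way in the full combination and with PARPi and ICB. It was at 28.3, 34.9, 42.0 and 29.4 CPM in the full combination, 26.4, 30.9 and 39.6 CPM with PARPi and ICB, 24.7, 19.5, 28.3 and 25.1 CPM with PARPi and anti-VEGFA, 18.1, 18.3 and 18.7 CPM with PARPi, and 20.2, 25.9 and 16.0 CPM in controls. The full combination and PARPi with ICB did not overlap the controls, at 0.70 ± 0.17 (edgeR adjusted p = 0.00654) and 0.64 ± 0.18 (adjusted p = 0.021), and adding ICB to PARPi raised it by 0.82 ± 0.18 (adjusted p = 0.0318, lost in 8 of 14 alternative fits). With PARPi and anti-VEGFA the value was 0.24 ± 0.17 (adjusted p = 0.358). Pericyte markers were called lower in 6 of 7 genes in the full combination, 5 of 7 with PARPi and ICB and 4 of 7 with PARPi and anti-VEGFA, where Cxcl12 was not called, against 11.5, 6.52 and 7.8% of all genes called lower in these groups. Their summed level was 225 to 360.2 CPM in the full combination, 234 to 291 CPM with PARPi and ICB, 233 to 372 CPM with PARPi and anti-VEGFA, and 402 to 508 CPM in controls. Their part in the level of Cxcl12 was not tested.

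Cxcl17, a mucosal chemokine, was at 22.7, 34.5, 21.4 and 36.6 CPM in the full combination, 24.6, 28.4 and 20.8 CPM with PARPi and ICB, 34.9, 42.2, 39.96 and 39.04 CPM with PARPi and anti-VEGFA, and 49.7, 38.6 and 41.1 CPM in controls. The full combination and PARPi with ICB lay below the controls, while PARPi with anti-VEGFA overlapped them and was not called. ICB alone, at 33.9, 23.5 and 33.1 CPM, also lay below the controls but was not called. Cxcl17 fell by 0.58 ± 0.18 (edgeR adjusted p = 0.0252, lost in 5 of 15 alternative fits) in the full combination and by 0.81 ± 0.19 (adjusted p = 0.00891) with PARPi and ICB. Ccl25, the ligand of CCR9 in gut and thymus, was at 15.6, 11.3, 13.1 and 17.1 CPM in the full combination and 18.6, 21.8 and 22.2 CPM in controls, and fell by 0.54 ± 0.13 (edgeR adjusted p = 0.00715). Ccr9 rose there, at 2.99, 1.75, 3.95 and 1.93 CPM against 0.976, 0.907 and 0.595 CPM in controls (1.68 ± 0.37, edgeR adjusted p = 0.00358), and 19.04% of its exon bases overlap genes on the opposite strand. Ccl28, a ligand of CCR10 and CCR3, fell by 1.01 ± 0.34 (adjusted p = 0.0387) at 0.974, 0.749, 1.20 and 1.03 CPM in the full combination and 2.77, 1.71 and 1.49 CPM in controls, a call that was lost in 8 of 15 alternative fits. Of 10 epithelial and mesothelial markers 3 were called higher and 5 lower in the full combination, against 12.6 and 11.5% of all genes. Their sum was at 2022 to 2304 CPM in the full combination and 2466 to 2840 CPM in controls, and their part in these falls was not tested.

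None of the 4 tested CXCR2 ligand genes, whose products attract neutrophils, was called in any comparison. Cxcl2 was at 0.259 to 0.464 CPM in the full combination, 0.589 to 1.36 CPM with PARPi and anti-VEGFA and 0.437 to 0.567 CPM in controls. Cxcr2 was called higher with PARPi and anti-VEGFA at 0.236, 0.412, 0.438 and 1.06 CPM, against 0.0630, 0.134 and 0.132 CPM in controls. These levels are near the floor, with 8, 14, 12 and 28 raw counts against 2, 4 and 4. The highest value is in replicate 4, which also held pancreatic acinar RNA. The follicular axis of CXCL13 and CXCR5, which gathers B cells, differed between its members. Cxcl13 was at 21.03, 46.2, 22.5 and 32.5 CPM in the full combination, 17.1, 38.7, 76.7 and 55.7 CPM with PARPi and anti-VEGFA, and 23.4, 21.2 and 14.7 CPM in controls, overlapping in both cases (0.63 ± 0.51, adjusted p = 0.409 and 1.25 ± 0.52, adjusted p = 0.106 by edgeR). Cxcr5 was called in the full combination at 2.86, 3.82, 5.08 and 1.90 CPM, against 1.39, 2.08 and 1.55 CPM in controls (1.03 ± 0.30, adjusted p = 0.0195, lost in 6 of 15 alternative fits), with replicate 4 inside the control range.

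Cx3cl1, the membrane-bound ligand made by endothelium and epithelium, behaved unlike the other ligands. It was called with ICB alone, at 138, 168 and 152 CPM against 120.4, 98.9 and 109.8 CPM in controls (0.48 ± 0.11, edgeR adjusted p = 0.0272, lost in 7 of 14 alternative fits), and in no combination. Ackr1, which carries chemokines across venular endothelium, was the one atypical receptor called, in all 3 combinations, at 1.66, 0.856, 1.46 and 1.45 CPM in the full combination and 0.283, 0.537 and 0.397 CPM in controls. Of its exon bases 25.7% are shared with Cadm3 on the same strand. Ackr2, Ackr3 and Ackr4, which scavenge chemokines, were not called in any comparison.

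Ligands were set beside receptors they are known to bind in 30 pairs with both genes tested, formed by 27 ligands and 15 receptors, so pairs share genes. Both genes were called higher in 7 pairs in the full combination, 4 with PARPi and ICB and 11 with PARPi and anti-VEGFA. The 4 were Ccl3, Ccl5, Ccl6 and Ccl9, each with Ccr1. The full combination added Cxcl9 with Cxcr3, Cxcl16 with Cxcr6 and Xcl1 with Xcr1. A lower ligand stood against a higher receptor in 2, 1 and 3 pairs of these groups, among them Cxcl12 with Cxcr4 in the full combination and PARPi with ICB, and Ccl25 with Ccr9 in the full combination and PARPi with anti-VEGFA. No pair had a receptor called lower. Singly, 13, 10 and 16 of 30 tested ligands were called higher in the full combination, with PARPi and ICB, and with PARPi and anti-VEGFA. For the 21 tested receptors the counts were 13, 9 and 13. Such shares alone give pairs with both genes higher, and whether partners rose together beyond them was not tested.

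**Figure D4:**
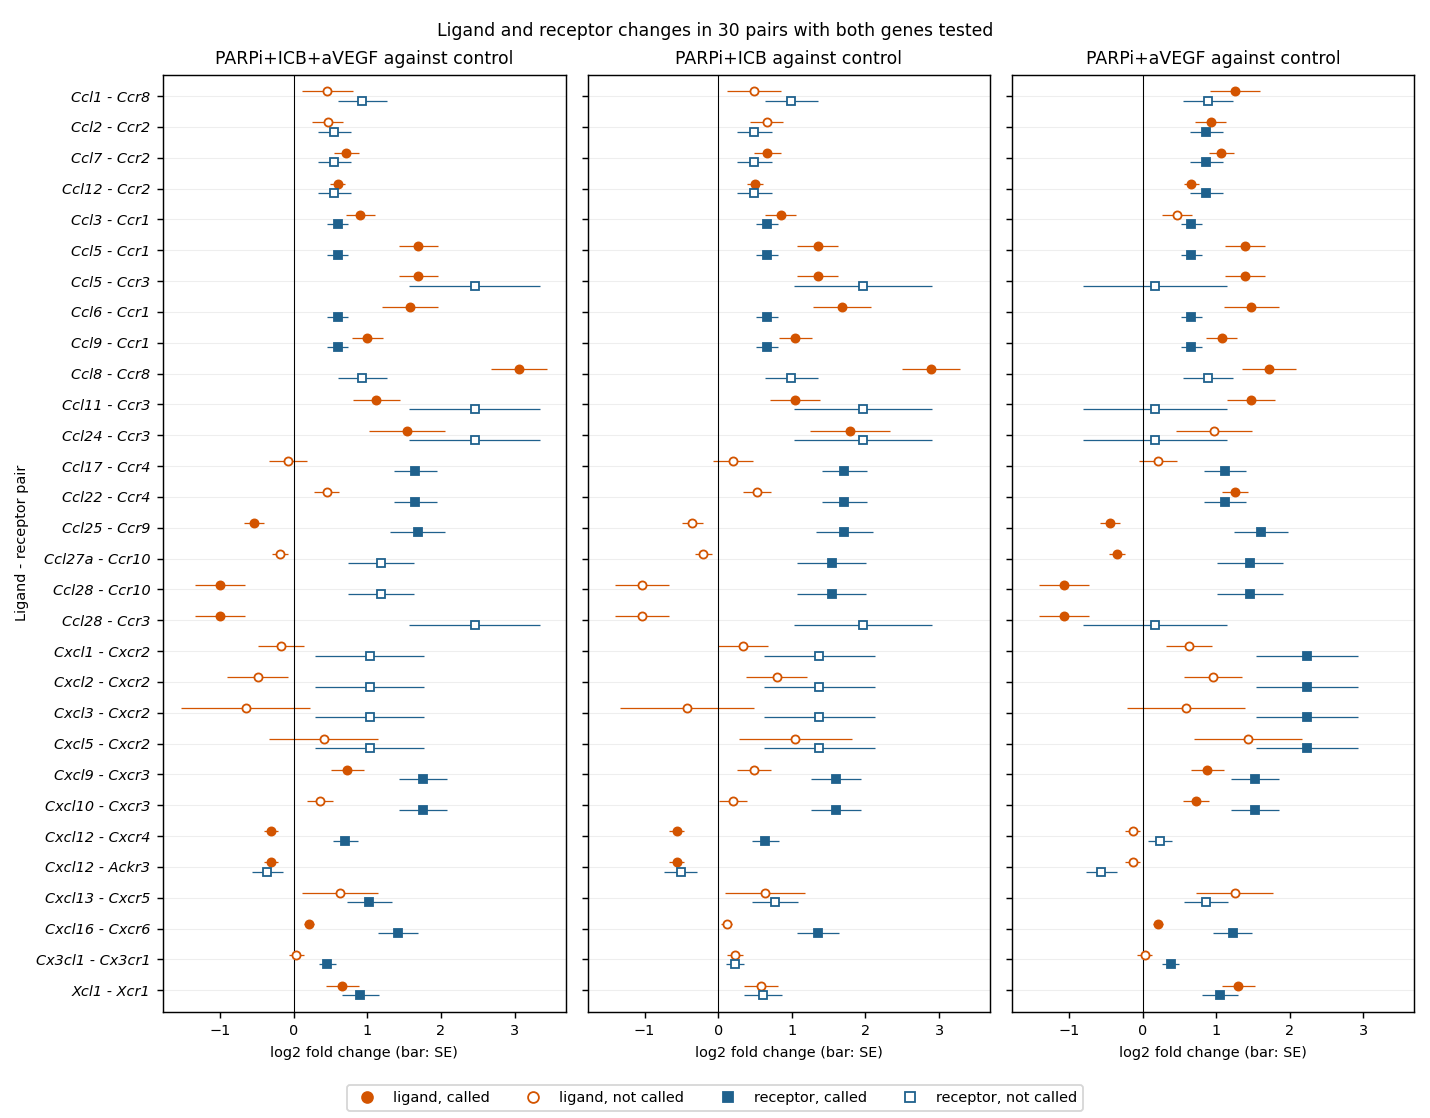
Log2 fold change against controls, with SE, of the ligand (circles) and the receptor (squares) in each of 30 pairs for 3 combination groups, filled where called at an adjusted p under 0.05. In 7, 4 and 11 pairs both symbols are filled and right of 0, and Cxcl12 and Ccl25 lie left of 0 while Cxcr4 and Ccr9 lie right of it.

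Part of the genes acting around and downstream of the receptors were also called. Only their RNA was measured, and a link to the receptors or to cell numbers was not tested. In the full combination 13 of 25 genes of chemokine receptor signalling were called higher and 1 lower, among them Pik3r5 (1.35 ± 0.21, edgeR adjusted p = 0.000256), a regulatory subunit of PI3K gamma. Of 16 integrin and adhesion genes of leukocyte arrest, 10 were higher and 1 lower, with Selplg, the selectin ligand PSGL-1, at 1.32 ± 0.16 (adjusted p = 5.1e-05) and Itgb7 at 1.74 ± 0.22 (adjusted p = 6.65e-05). Of 14 genes that desensitise the receptors 7 were higher and 1 lower, with Grk2 at 0.39 ± 0.07 (edgeR adjusted p = 0.000905). The protease gene Dpp4, whose product trims and inactivates several chemokines, was among the 3 of 13 protease and carrier genes called higher (1.48 ± 0.22, edgeR adjusted p = 0.000193), and 2 were lower. Of 19 transcription factor and kinase genes acting on chemokine genes 6 were higher, among them Irf8 (0.64 ± 0.12, adjusted p = 0.00112), and of 16 inducing cytokines and receptors 5 were higher, among them Ltb (1.22 ± 0.17, adjusted p = 0.000153). The background for all these counts is the 12.6% of genes called higher and 11.5% called lower. Cmklr1, Rarres2 and Gpr35 of 8 other chemoattractant genes were higher and Gpr182 was lower.

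Leukocyte markers were called higher in the combinations, where most chemokine calls lay. With ICB and with PARPi alone 3 and 0 chemokine members were called. In these 2 groups 12 and 16 of the 51 tested members lay above every control, against 11.7 and 11.2% of all genes. In the full combination all 11 T cell markers, 8 of 9 cytotoxic, 6 of 6 natural killer cell, 8 of 10 macrophage, 5 of 6 monocyte and 6 of 8 dendritic cell markers (Xcr1 among them) were called higher. Summed T cell markers were at 117 to 181 CPM in the full combination, 94.6 to 158 CPM with PARPi and ICB, 84.5 to 121 CPM with PARPi and anti-VEGFA, 68.8 to 83.6 CPM with ICB, 63.8 to 85.0 CPM with PARPi, and 42.8 to 57.1 CPM in controls. No treated group overlapped the controls, and with ICB and PARPi 2 and 0 of the 11 were called. Plasma cell markers were called higher in 8 of 8 genes in each combination, 7 of 8 with ICB and 1 of 8 with PARPi. Of 9 B cell markers 4 were higher and 1 lower in the full combination and with PARPi and ICB, 2 were higher with PARPi and anti-VEGFA, and 1 was lower with ICB. Of 9 fibroblast markers 7 were higher and 1 lower in the full combination, 5 were higher with PARPi and ICB, 6 with PARPi and anti-VEGFA, and 1 with ICB. As background, 12.6% of all genes were called higher in the full combination, 9.58% with PARPi and ICB and 9.99% with PARPi and anti-VEGFA. The share was 1.23% with ICB and 0.0551% with PARPi. Called lower were 11.5, 6.52, 7.8, 0.976 and 0.011% of all genes in the same order. Summed macrophage markers were at 1769 to 2168 CPM in the full combination and 1134 to 1276 CPM in controls, and none of these markers was at 0 in any group. The part of cell numbers in the receptor and ligand levels was not tested.

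Comparisons among treated groups gave few calls. Adding ICB to PARPi raised Ccl8, Cxcr4 and Ccl12 (3 of 51, 5.88%, against 1.26% of all genes), and adding anti-VEGFA to PARPi raised Ccl11, Cxcl14, Ccl7 and Ccl12 (4 of 51, 7.84%, against 0.573%). Cxcl14, a chemokine of fibroblasts and epithelia, was at 10.2, 15.7, 11.8 and 16.0 CPM with PARPi and anti-VEGFA and 4.92, 6.87 and 5.63 CPM with PARPi (1.21 ± 0.24, edgeR adjusted p = 0.0366, lost in 8 of 15 alternative fits). Ccl7 was at 7.51, 10.9, 10.3 and 14.6 CPM and 6.42, 5.97 and 6.20 CPM in the same groups (0.80 ± 0.17, adjusted p = 0.0436, lost in 10 of 15 alternative fits). These sets shared Ccl12. They use the same 3 PARPi libraries, and the count for anti-VEGFA was 0 without PARPi replicate 2, without PARPi replicate 3 or without PARPi with anti-VEGFA replicate 3. No member was called between the full combination and PARPi with ICB (0% of all genes called, 2 members at an unadjusted p under 0.05, against 4.11% of all genes) or between the full combination and PARPi with anti-VEGFA (0.0882% of all genes called, 16 members at an unadjusted p under 0.05, against 12.5% of all genes, and 3 called by DESeq2).

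The interaction terms, which ask whether ICB acts differently with PARPi than without, or with anti-VEGFA than without under PARPi, gave no call by edgeR among the members or among all genes. At an unadjusted p under 0.05 there were 6 and 11 members (5.21 and 6.55% of all genes), and DESeq2 called 0 and 1.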

How the data were processed

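RNA from frozen tumours was sequenced from stranded, ribosomal RNA-depleted libraries, per the labels' protocols. STAR, HTSeq and GRCm38 are named in the submitters' processing notes, without versions. The authors deposited raw counts per Ensembl gene and, separately, log2(RPKM + 1) values, whose length was the gene span. The counts of 20 libraries in 6 groups were fitted in edgeR 4.0.16 (R 4.3.3) with TMM scaling, 1 coefficient per group and no block, after a filter on low counts (minimum count 10, minimum total 15) that left 18144 of 55406 genes. The 12 comparisons were tested by quasi-likelihood with Benjamini-Hochberg adjustment over all tested genes. DESeq2 1.42.0 and limma 3.58.1 (on the deposited log2 RPKM) were alternatives. The script was tested on simulated data. CPM are counts per M of the effective library size, which is the total over tested genes times the TMM factor. SE is the log2 fold change divided by the root of F. The p-values set each group difference against a spread between tumours that was estimated over all 20 libraries. Replicate numbers carry no stated pairing. Levels are named for any member. Statistics are given for called members (up to 10 per direction, mean of at least 1 CPM), their listed partners, 11 axis genes, and up to 4 called genes per list. Members and lists were chosen with earlier results of these data known. Some genes are counted in totals and not reported here.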

Additional observations from a re-analysis of the deposited data

Results flagged for a closer look

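In 5 of 102 sets of 4 libraries, 1 library lay far from the other 3 by Dixon's criterion, about what chance gives at 1 in 20. In full combination replicate 3, Cxcr3 was at 19.1 CPM, with the others at 9.15 to 9.59 CPM, and Ccr1 was at 56.4 CPM, with the others at 44.2 to 45.5 CPM. In full combination replicate 1, Cxcl10 was at 89.4 CPM, with the others at 55.2 to 58.4 CPM. In PARPi with anti-VEGFA replicate 4, Cxcl1 was at 19.6 CPM, with the others at 7.42 to 9.16 CPM, and Cxcl5 was at 4.72 CPM, with the others at 0.413 to 0.766 CPM. That library also held pancreatic acinar RNA, whose part in these values was not tested.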

How the results depend on the processing

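Counts of called members moved by over 1.5 times in the following fits. Without the filter on low counts they were 2 for PARPi, 5 for ICB, 3 for PARPi with ICB against ICB and 2 for the full combination against PARPi with anti-VEGFA. DESeq2 called 2 for PARPi, 7 for ICB, 11 for PARPi with ICB against PARPi, 9 for PARPi with anti-VEGFA against PARPi, 12 for PARPi with ICB against ICB, 3 for the full combination against PARPi with anti-VEGFA and 1 for the interaction of ICB and anti-VEGFA. Fitting the compared groups alone gave 2 for PARPi, 1 for PARPi with ICB against PARPi and 0 against ICB. Limma gave 1 for ICB, 1 for PARPi with anti-VEGFA against PARPi and 0 for PARPi with ICB against ICB.

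With a replicate block, 2 members were called for PARPi with anti-VEGFA against PARPi and 3 for PARPi with ICB against ICB, and other counts stayed within 1.5 times. Of 46 same-number pairs 13 had a correlation of deviations over 0.1, and the median was 0.014. This count alone does not show whether replicate numbers pair the samples. For 12 of 20 libraries the best correlate was a library with the same number, a hint from the data and not from the design.

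The following fits were chosen after seeing the data. Without acinar libraries, ICB had 0 calls and PARPi with ICB against ICB had 7. With the library preparation RNAs as covariate, calls against controls were 0 for ICB, 1 for PARPi with ICB, 0 for PARPi with anti-VEGFA and 16 for the full combination, and they were 1 for PARPi with ICB against PARPi, 0 for PARPi with anti-VEGFA against PARPi and 0 for PARPi with ICB against ICB. The cause was not tested.

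Leaving out 1 library gave 0 to 1 calls for ICB, 12 to 26 for PARPi with ICB, 20 to 32 for PARPi with anti-VEGFA and 19 to 28 for the full combination against controls. It gave 1 to 6 for PARPi with ICB against PARPi, 0 to 8 for PARPi with anti-VEGFA against PARPi, 0 to 6 for PARPi with ICB against ICB and 0 to 1 for the full combination against PARPi with anti-VEGFA. Of 62 called gene results, 218 alternative fits lost the call and 692 kept it, none with a change of sign. Of 21 uncalled ones, 25 alternative fits gained a call and 281 did not, among them Ccr3 in the full combination in 5 of 15 (3.29 with the covariate, adjusted p = 0.0338 by edgeR), Ccr8 there in 4 of 15 and Cxcr3 with PARPi in 3 of 14, and 2 changed sign: Cxcl12 for PARPi with anti-VEGFA was 0.040 with the covariate, and Ccl8 for the full combination against PARPi with ICB was -0.10 without full combination replicate 1, the lowest of a range up to 0.55 without PARPi with ICB replicate 3.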
